A study of Mus musculus with 8 samples.

Results

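TAZ, encoded by Wwtr1, and YAP, encoded by Yap1, are paralogous transcriptional coactivators at the end of the Hippo pathway. The genes described here are these coactivators and 8 partners: the DNA-binding partner Tead1, the kinases Stk3, Lats1 and Lats2, the regulators Amotl2 and Ajuba, and the targets Ankrd1 and Ihh. They were chosen by gene symbol, and all 10 had a row among the 17810 genes of the deposited table. The choice uses no measured value, although it was made with earlier results of these data known.

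The study asked what loss of miR-33 in hepatocytes does in metabolic dysfunction-associated steatotic liver disease, and the question addressed here is whether RNA levels of the TAZ and YAP pathway differed between genotypes at the early, steatotic stage. Whole livers came from 4 WT mice and 4 HKO littermates. HKO mice carried a loxP-flanked miR-33 gene and a Cre recombinase driven by the albumin promoter, which acts in hepatocytes. The paper states that an effect of this Cre on miR-33 in cholangiocytes remains to be checked. Whether the other cells of an HKO liver still had miR-33 was not tested here. Both genotypes were placed at 8 weeks of age on a diet high in fat and without added choline (CD-HFD), remained on it for 3 months and were 5 months old at collection. They were then fasted for 6 hours, perfused with PBS and sampled as frozen liver. There was no chow-fed group in this series, so effects of the diet were not measured.

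In the Hippo cascade, the kinase encoded by Stk3 and its relative Stk4 activate the LATS kinases, which phosphorylate YAP and TAZ so that they stay in the cytoplasm or are degraded. Unphosphorylated YAP and TAZ enter the nucleus and act with TEAD factors on genes of growth, cytoskeleton and matrix, several of which encode inhibitors of the same pathway. In liver the pathway is known for control of organ size and for its part in biliary fate, and hepatocyte TAZ is known to act on Ihh, a Hedgehog ligand that signals to stellate cells. Much of this control acts on protein, which RNA counts do not measure.

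Because miR-33 is the deleted RNA, its mature sequence is shown first, with the seed (bases 2 to 8) in capitals. It was read from RefSeq (GRCm38.p6), where the mature form lies on the plus strand at chr15:82198127-82198147.
mmu-miR-33-5p: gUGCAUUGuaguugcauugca
A match to this seed in a 3′UTR is spelled CAATGCA (bases 2 to 8) or AATGCAA (bases 2 to 7 with A opposite base 1), on the transcript strand only, and the 2 spellings overlap by 6 bases where both occur. For each gene the search covered its longest 3′UTR in the annotation. Wwtr1, whose 3′UTR ran over 3277 bases, held 0 matches, and Yap1, Tead1, Lats1, Lats2, Stk3, Amotl2, Ajuba and Ihh also held 0. Ankrd1 held 1 match, at chr19:36111975-36111981 on the minus strand, beginning at base 1079 of its 1095-base 3′UTR. It is shown with 10 bases on each side, the match in capitals.
Ankrd1 3′UTR: atttataataAATGCAAactaattctc
Thus 1 of 10 genes held a seed match of 7 bases, beside 17.6% of the 11690 tested genes with an annotated 3′UTR. The 8-base spelling CAATGCAA occurred in 0 of the 10 and in 2.38% of those genes. Ankrd1 was itself too scarce to be among the tested genes. The 3′UTRs of the 10 genes were also longer, with a median of 2235 bases against 1394 bases in the tested genes. These letters describe the annotated 3′UTRs and say nothing of other ways in which an miRNA could act.

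TEAD factors bind DNA at the motif GGAATG, so RefSeq promoter sequences, which run from 250 bases before to 50 bases after a start site, were read on both strands (GGAATG or CATTCC). The table held promoters for 8 of the 10 genes, Tead1 and Stk3 having no entry. These 8 genes had 10 promoters in the table. The motif stood in 7 of these 10 promoters, beside 14.7% of all 32851 promoters. Overlapping promoters of a gene shared a site, so the 7 were not all separate stretches. At least 1 promoter of 6 of the 8 genes held the motif. Those of the coactivators are printed first and those of known TAZ and YAP targets after them, because in these genes the pathway's own motif lies beside the start. Each is given on the strand of its gene, 5′ to 3′, with the motif in capitals.
Wwtr1: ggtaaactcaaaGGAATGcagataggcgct
Yap1: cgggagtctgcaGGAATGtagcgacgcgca
Amotl2: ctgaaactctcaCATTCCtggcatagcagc
Lats2: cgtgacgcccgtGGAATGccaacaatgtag
Ankrd1 (distal): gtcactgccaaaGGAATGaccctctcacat
Ankrd1 (proximal): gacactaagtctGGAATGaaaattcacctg
Ajuba (distal): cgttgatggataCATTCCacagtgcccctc
Ajuba (proximal): tgcccctccgcgCATTCCaactgtaaacaa
The motif of Wwtr1 (chr3:57576041-57576046, minus strand gene) began at -136 from the start site, and that of Yap1 (chr9:8004732-8004737, minus strand gene) at -141. The motif of Amotl2 lay at chr9:102717739-102717744 (-65), and that of Lats2 at chr14:57746114-57746119, within the transcribed bases. Ankrd1 and Ajuba each held 2 copies, at chr19:36120049-36120054 and chr19:36119962-36119967 for Ankrd1 and at chr14:54577842-54577847 and chr14:54577820-54577825 for Ajuba. The longer spelling GGAATGT (or ACATTCC) contains the shorter motif. It occurred in 3 of the 10 promoters, 1 each of Ajuba, Amotl2 and Yap1, beside 3.85% of all promoters. A match is a description of letters and does not show that a TEAD factor bound there in these livers.

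**Figure D1:**
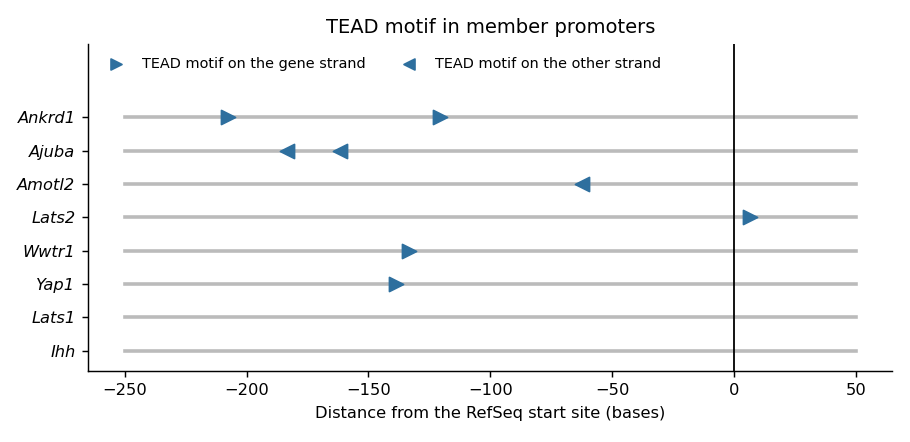
Positions of the TEAD motif in RefSeq promoters of the 8 genes with an entry, as distance in bases from a start site (vertical line); each grey line spans 250 bases before to 50 after it, and triangles point with the strand that reads GGAATG. Ankrd1 and Ajuba held 2 copies each, Amotl2, Lats2, Wwtr1 and Yap1 held 1, and Lats1 and Ihh held none in this window.

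Levels are given as CPM, the counts of a gene scaled to a library of fixed size, and were scaled between libraries by the trimmed mean of M values (TMM). Libraries held 12174339 to 18735785 counts, so that 3 counts, taken as the limit that a count of 0 allows, corresponded to 0.160 to 0.246 CPM, and this limit covers counting error only. HKO replicate 2 stood apart in cholangiocyte markers, with Krt19 at 16.9 CPM against 0.17 to 1.07 CPM in the other 7 livers, and WT replicate 1 stood apart in cholesterol synthesis genes, where they summed to 4655 CPM, the other WT livers lying at 1630 to 2017 CPM. Pairs of livers within a genotype were also compared by chi-square per degree of freedom on their counts. HKO replicate 3 stood furthest apart, at 106 to 120 against the other HKO livers. All other pairs gave 18.4 to 41.1. The running numbers after the letter S, which end the deposited column names, separate the genotypes completely, unlike the other numbers in those names. An order of library handling, if the S numbers mark one, cannot be told apart from genotype. The level of miR-33 itself, and so a check of the labels on the deleted RNA, was not analysed here.

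In WT livers Wwtr1 was at 63.8, 72.0, 53.9 and 58.9 CPM. In HKO livers it was at 48.1, 51.6, 40.7 and 34.2 CPM. All 4 HKO livers were below all 4 WT livers, the closest being HKO replicate 2 and WT replicate 3. The mean fell from 62.2 ± 7.73 to 43.7 ± 7.75 CPM (SD, n = 4 each), 29.8% below WT. The log2 fold change was -0.51 (SE 0.13, 95% interval -0.80 to -0.22), with an adjusted p of 0.0498 (edgeR quasi-likelihood test, Benjamini-Hochberg adjustment over 12395 genes). This lies at the threshold of 0.05, since Wwtr1 was 616th by p of the 624 genes called. DESeq2 gave an adjusted p of 0.0116 and limma-voom 0.0454, whereas relative log expression (RLE) scaling in edgeR gave 0.052. In fits on 7 livers, 1 omitted each time, its log2 fold change was -0.60 to -0.41 and its adjusted p 0.0344 to 0.156. Wwtr1 was past the threshold in 2 of these 8 fits, those without WT replicate 3 or HKO replicate 2.

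In bulk liver, fewer cells of a type and less RNA per cell cannot be told apart, and Wwtr1 is also used by cells other than hepatocytes. Summed levels of 10 stellate cell and fibroblast markers were 341 to 470 CPM in WT livers and 300 to 417 CPM in HKO livers. Of the 10, 1 passed the edgeR test, beside 5.03% of all genes tested. That gene was Col1a1, the main fibrillar collagen chain, at 10.3 to 26.9 CPM in WT livers and 1.28 to 3.4 CPM in HKO livers (log2 fold change -2.81, adjusted p 0.00723 by edgeR). Markers of endothelial cells summed to 70 to 243 CPM in WT and 121 to 276 CPM in HKO livers, and those of Kupffer cells and macrophages to 86.6 to 230 CPM in WT and 64.3 to 215 CPM in HKO livers. Of these lists, 0 of 8 endothelial and 0 of 8 macrophage markers passed by edgeR, DESeq2 or limma-voom, and 0 had an unadjusted p under 0.05. Mesothelial markers were scarce, at 2.59 to 9.42 CPM in WT and 0.17 to 2.5 CPM in HKO livers, with 0 of 3 past any of these tests. An unadjusted edgeR p under 0.05 was found for 2 of the 3, beside 19.8% of all genes tested. Among 6 hepatocyte markers, Cps1, Serpina1c and Fga passed as higher in HKO livers, beside 1.66% of all genes tested. Apoa1 (log2 fold change 0.49, adjusted p 0.155 by edgeR), Alb (-0.03, 0.967) and Ttr (-0.08, 0.803) did not pass. The summed levels of the 6 overlapped. No marker of these lists was at 0 in all 8 livers. Their part in the Wwtr1 result was not tested.

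Yap1, the paralogue of Wwtr1, was at 80.9, 84.1, 84.7 and 90.2 CPM in WT livers. In HKO livers it was at 88.5, 79.4, 89.6 and 89.2 CPM. The genotypes overlapped throughout, and HKO replicate 2 was the lowest of all 8 livers. Means were 85 ± 3.84 and 86.7 ± 4.90 CPM (SD, n = 4 each), and the log2 fold change was 0.03 (SE 0.07, 95% interval -0.13 to 0.19, adjusted p 0.882 by edgeR). Scaling by total counts, which shifted the median gene by -0.09 on the log2 scale, turned this value to -0.06. The interval of the Yap1 difference thus excluded a change of the size fitted for Wwtr1, and Yap1 had a small spread between livers, with a coefficient of variation of 4.51% in WT and 5.65% in HKO livers against 12.4% and 17.7% for Wwtr1.

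**Figure D2:**
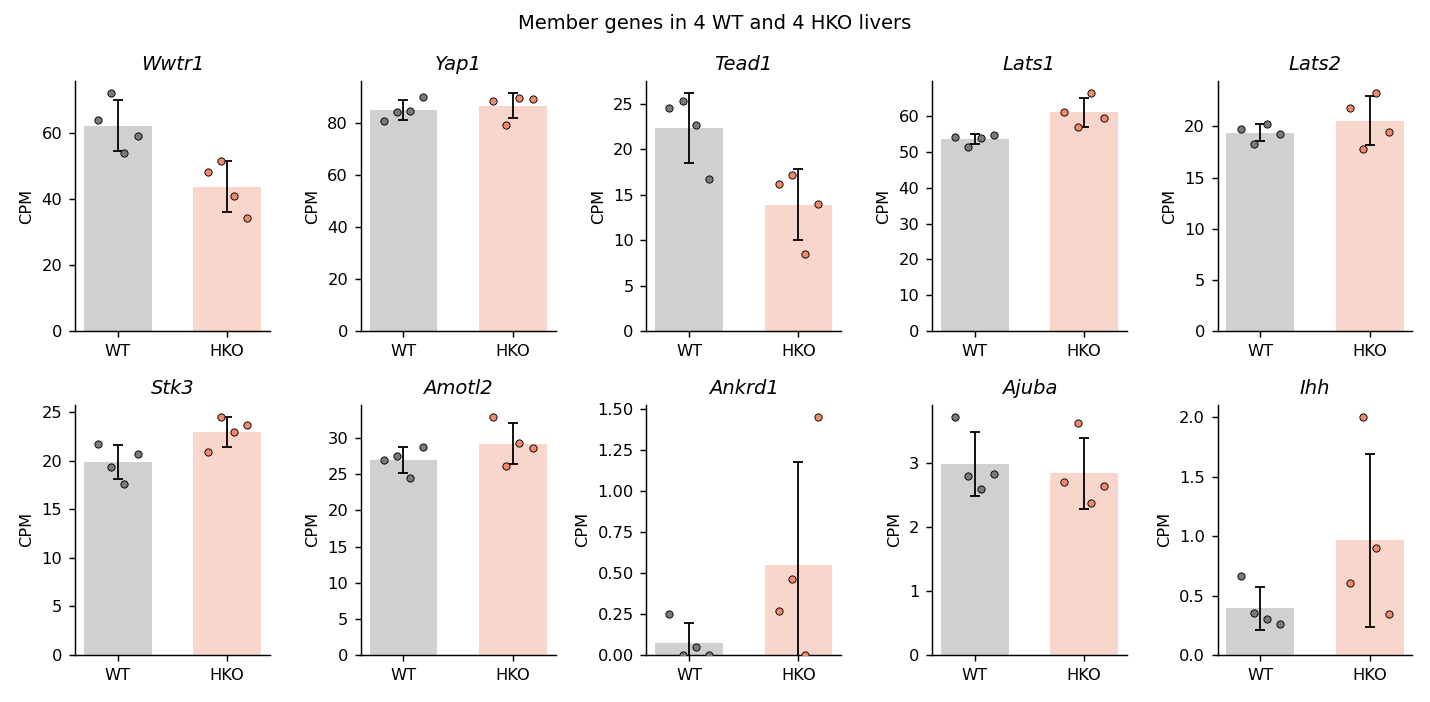
TMM-scaled level (CPM, each axis from 0) of the 10 genes in 4 WT (grey) and 4 HKO (orange) livers; points are livers in replicate order, bars are means and error bars are SD, cut off at 0. For Wwtr1 the 4 HKO points (34.2 to 51.6 CPM) lie below the 4 WT points (53.9 to 72.0 CPM), while Yap1 overlaps and Ankrd1 and Ihh are near the counting limit.

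The ratio of Wwtr1 to Yap1 within a liver needs no scaling between libraries. On the log2 scale it was -0.34, -0.22, -0.65 and -0.61 in WT livers and -0.88, -0.62, -1.14 and -1.38 in HKO livers. HKO replicate 2 overlapped the WT range, and the other 3 HKO livers lay below it. Mean ratios were 0.734 ± 0.106 in WT and 0.508 ± 0.115 in HKO livers (SD, n = 4 each). The difference in mean log2 ratio was -0.55, with p = 0.0571 (exact permutation test, two-sided, over 70 allocations of the livers), the smallest possible p being 0.0286 (0.0857 after Benjamini-Hochberg adjustment over the 2 ratios tested). Omitting HKO replicate 2 gave -0.67 with an exact permutation p of 0.0286. The other 7 omissions gave -0.61 to -0.42 with exact permutation p-values of 0.0571 to 0.114, the last without HKO replicate 4.

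**Figure D3:**
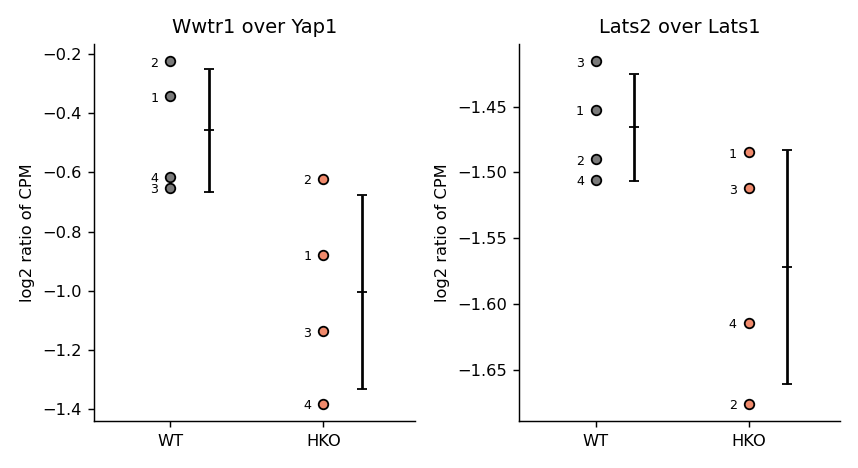
Log2 ratio of CPM within each liver for Wwtr1 over Yap1 (left) and Lats2 over Lats1 (right), with the replicate number beside each point and the mean ± SD to its right; vertical axes do not start at 0. For Wwtr1 over Yap1, 3 of 4 HKO livers lie below all WT livers and HKO replicate 2 (-0.62) does not.

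Tead1, which encodes a DNA-binding partner of both coactivators, was at 24.5, 25.3, 22.7 and 16.8 CPM in WT livers. In HKO livers it was at 16.1, 17.1, 8.45 and 14 CPM. Only WT replicate 4 and HKO replicate 2 overlapped, and HKO replicate 3 was the lowest liver. Means were 22.3 ± 3.86 and 13.9 ± 3.88 CPM (SD, n = 4 each), with a log2 fold change of -0.68 (SE 0.21, 95% interval -1.16 to -0.21). It did not pass the edgeR test (adjusted p 0.107), while DESeq2 gave an adjusted p of 0.0265. Leaving out each liver gave log2 fold changes of -0.80 to -0.50 and adjusted p-values of 0.0662 to 0.264. The Tead1 counts behind these values were 150 to 456 per liver, and its spread between livers was wide, at 17.3% of the mean in WT and 27.9% in HKO livers.

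The kinases lay on the other side of 0. Lats1, which phosphorylates YAP and TAZ, was at 54.1, 51.4, 53.9 and 54.7 CPM in WT livers and at 61, 57, 66.4 and 59.4 CPM in HKO livers. With TMM scaling all 4 HKO livers were above all 4 WT livers, but by a small margin. Scaled by total counts the genotypes overlapped. WT replicate 3 (1083 of 18319736 counts) then lay above HKO replicate 4 (698 of 12509201 counts). The log2 fold change of Lats1 was 0.19 (SE 0.07, 95% interval 0.02 to 0.35), and it did not pass the edgeR test (adjusted p 0.188) in the full data or in any of the 8 fits that left out a liver.

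Lats2, a second LATS kinase that is also a known TAZ and YAP target, was at 19.8, 18.3, 20.2 and 19.3 CPM in WT livers. In HKO livers it was at 21.8, 17.8, 23.3 and 19.4 CPM. The genotypes overlapped, and the lowest and the highest liver were both HKO. Its log2 fold change was 0.09 (SE 0.10, 95% interval -0.14 to 0.31, adjusted p 0.700 by edgeR), turning to -0.00 with total-count scaling. The ratio of Lats2 to Lats1 differed by -0.11 on the log2 scale (exact permutation p = 0.0857, unchanged by adjustment over the 2 ratios).

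Stk3, which encodes the upstream kinase MST2, was at 21.7, 19.3, 17.7 and 20.7 CPM in WT livers. In HKO livers it was at 20.9, 24.5, 22.9 and 23.7 CPM. HKO replicate 1 lay below WT replicate 1, and the other 3 HKO livers were above all WT livers. The log2 fold change was 0.21 (SE 0.10, 95% interval 0.00 to 0.43), which did not pass the edgeR test (adjusted p 0.251).

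Amotl2 encodes an angiomotin that binds YAP and TAZ and keeps them out of the nucleus, and the gene is itself a target of theirs. It was at 27.0, 27.6, 24.5 and 28.9 CPM in WT livers and at 33, 26.2, 29.3 and 28.6 CPM in HKO livers. The genotypes overlapped and HKO replicate 1 was highest. The log2 fold change of Amotl2 was 0.12 (95% interval -0.09 to 0.32, adjusted p 0.549 by edgeR), 0.06 without HKO replicate 1 and 0.03 with total-count scaling. That scaling gave 0.10 for Lats1 and 0.13 for Stk3.

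Ajuba, a LIM protein that restrains LATS kinases, was at 3.72, 2.79, 2.59 and 2.83 CPM in WT livers. In HKO livers it was at 2.70, 3.63, 2.37 and 2.64 CPM. A single liver of each genotype, WT replicate 1 and HKO replicate 2, lay above the other 6. With 31 to 52 counts per liver, the log2 fold change of -0.07 had a wide 95% interval of -0.54 to 0.40 (adjusted p 0.902 by edgeR), and its sign turned in the fits that lacked WT replicate 1 or HKO replicate 3.

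The 2 remaining genes were too scarce for the expression filter. Ankrd1, an ankyrin-repeat protein widely used as a readout of YAP and TAZ, had 3, 0, 1 and 0 counts in WT livers and 4, 6, 0 and 17 counts in HKO livers. All WT livers and HKO replicate 3 were at or below the 3-count limit, so no fold is given. Ihh, the Hedgehog ligand linked to hepatocyte TAZ, had 8, 5, 6 and 4 counts in WT livers and 9, 26, 16 and 4 counts in HKO livers. The genotypes overlapped, and HKO replicate 2, with the highest Ihh (2.01 CPM against 0.26 to 0.90 CPM in the other 7 livers), was the liver that stood apart in cholangiocyte markers. The 8 cholangiocyte markers summed to 128.5 CPM there, to 41.5 to 68.5 CPM in the other HKO livers and to 55.2 to 67.4 CPM in WT livers, and 6 of the 8 were highest there. Their part in the Ihh counts was not tested. Without the filter, edgeR gave adjusted p-values of 0.224 for Ankrd1 and 0.241 for Ihh. Counts were few, and the spread between HKO livers was also wide, with a coefficient of variation of 75.9% for Ihh and 116% for Ankrd1 where counting alone gives 27.0% and 38.5%. A difference in either was not detectable in these 8 livers.

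Of the 10 genes, 8 passed the filter on low counts and 1, Wwtr1, passed the test, as lower in HKO livers, beside 5.03% of all 12395 genes tested (3.37% as lower and 1.66% as higher). With total-count scaling 621 genes passed as lower and 119 as higher, against 418 and 206 with TMM. With TMM scaling genotypes did not overlap for 2 of the 8, Wwtr1 lower and Lats1 higher, beside 12.5% of all genes tested (7.19% lower and 5.34% higher). Those of Lats1 overlapped with total-count scaling. The median log2 fold change of the 8 was 0.06, beside 0.01 over all genes tested. With DESeq2 2 genes passed, Wwtr1 and Tead1, both lower, beside 8.2% of 12365 genes, and with limma-voom 1, Wwtr1, beside 4.91% of genes. At an unadjusted p threshold of 0.05, 4 of 8 passed, beside 19.8% of genes, with Wwtr1 and Tead1 lower and Lats1 and Stk3 higher.

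**Figure D4:**
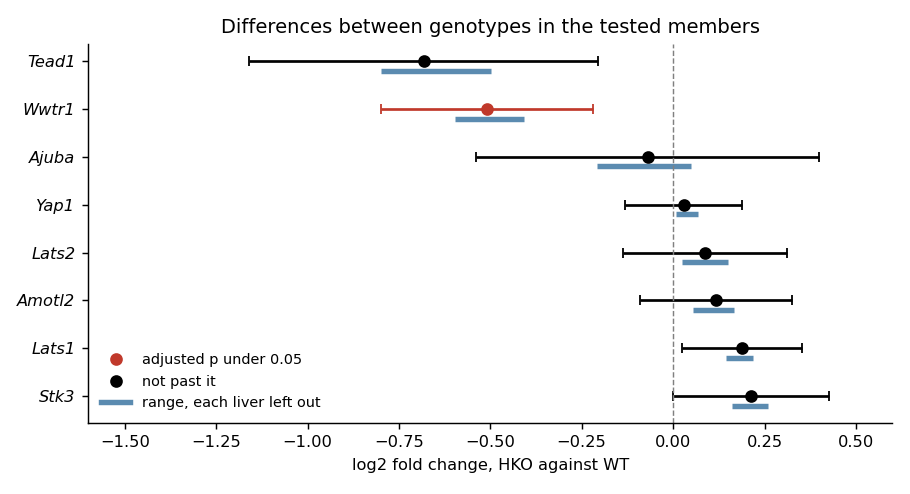
Log2 fold change of HKO against WT livers for the 8 tested genes, with 95% intervals from edgeR (points and whiskers) and, in blue, the range over 8 fits that each left out a liver. Wwtr1 (-0.51, red) alone passed the adjusted threshold, Tead1 (-0.68) had a wider interval, and Ajuba was the only gene whose range crossed 0.

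To compare levels between genes, CPM were divided by the summed exon length in kilobases. Over the 8 livers Wwtr1 (11.1 CPM per kb) and Yap1 (9.27) were highest, followed by Lats1 (7.84), Amotl2 (4.47), Stk3 (3.51), Lats2 (2.87), Tead1 (1.33), Ajuba (0.797), Ihh (0.223) and Ankrd1 (0.107). In WT livers the level of Wwtr1 (13.0 ± 1.62 CPM per kb) exceeded that of Yap1 (9.18 ± 0.41) by more than the spread, whereas in HKO livers the levels of the coactivators lay within a spread of each other (9.14 ± 1.62 and 9.36 ± 0.53, SD, n = 4 each). Ihh and Ankrd1 did not differ beyond their spread. The order of the coactivators rested on the length used: by the longest transcript Yap1 stood at 16.2 and Wwtr1 at 11.3 CPM per kb, and Stk3 and Amotl2 also changed places.

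Among the other genes tested with a mean of at least 1 CPM, those whose levels followed Wwtr1 most closely over the 8 livers were Nagk (Pearson r 0.987), Lpar1 (0.983) and Gm19619 (0.982), and the nearest gene of the 10 was Tead1 (0.779). With the genotype means subtracted they were Cish (0.980), Gm16348 (0.978) and Lgals1 (0.973), and the nearest gene of the 10 was then Ajuba (0.527) rather than Tead1. For Yap1 they included Klhl28 (0.945) and 2010315B03Rik (0.941), and with the genotype means subtracted Epc1 (0.972), Clptm1l (0.953) and 2010315B03Rik (0.951), the nearest of the 10 genes being Amotl2 in both cases. These correlations were the highest of 11877 genes over 8 livers that share 2 genotypes and are a description.

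The wider pathway was read from lists of genes. Of 31 Hippo components, 28 were tested, 1 passed as lower (Wwtr1) and 0 as higher, beside 5.03% of all genes tested. Their median log2 fold change was 0.07, with 20 above 0 and 8 below. Over all genes tested it was 0.01, with 6402 above 0 and 5993 below. Total-count scaling shifted the median gene by -0.09, so the side of 0 on which small values lay rested on the scaling. The most abundant genes of the list that did not pass were Yap1 and the kinases Taok1 (-0.06, adjusted p 0.736) and Taok3 (-0.03, adjusted p 0.939, with a sign that turned in fits on 7 livers), which act above STK3. DESeq2 called 2 of the 28, Wwtr1 and Tead1, and limma-voom 1, Wwtr1. An unadjusted edgeR p under 0.05 was found for 5, which were Wwtr1, Tead1, Lats1, Stk3 and Frmd6, beside 19.8% of all genes.

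Of 28 known YAP and TAZ targets, 27 had a row, Ctgf and Cyr61 under their current symbols Ccn2 and Ccn1, and 24 were tested. By edgeR 1 passed as lower and 1 as higher, beside 3.37% and 1.66% of all genes tested. Nt5e, which encodes the ectonucleotidase CD73, was at 20.1, 25.9, 17.7 and 11.5 CPM in WT livers and 9.11, 9.65, 4.85 and 8.26 CPM in HKO livers. All HKO livers were below all WT livers, and Nt5e fell by 1.24 on the log2 scale (SE 0.28, adjusted p 0.0373 by edgeR). Nuak2, a kinase gene of the AMPK family, was at 4.79, 6.0, 8.31 and 7.30 CPM in WT livers and 8.23, 11.2, 13.7 and 12 CPM in HKO livers. These overlapped by a single pair of livers, and Nuak2 rose by 0.77 (SE 0.20, adjusted p 0.0451 by edgeR). Limma-voom called 0 of the 24, with adjusted p-values of 0.055 for Nt5e and 0.057 for Nuak2, and by edgeR Nt5e passed in 1 and Nuak2 in 2 of the 8 fits without a liver.

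Over all 24 tested targets the median log2 fold change was -0.00, with 12 genes above 0 and 12 below. The matrix proteins Ccn2 and Ccn1, the targets most used as readouts, gave -0.04 (SE 0.60, adjusted p 0.985) and 0.17 (SE 0.28, adjusted p 0.808). Fits on 7 livers gave -0.77 to 0.25 for Ccn2 and -0.17 to 0.38 for Ccn1, so that a single liver turned the sign of either. Ccn2 ranged over 2.30 to 8.60 CPM in WT livers and 2.30 to 11.7 CPM in HKO livers, a spread too wide to show a moderate difference. Of the most abundant targets, Ccnd1, encoding cyclin D1, gave -0.67 (adjusted p 0.275) and Dock5 0.13 (adjusted p 0.502). Igfbp3 gave -0.71 and passed with DESeq2 (adjusted p 0.0416) but not edgeR (0.159). Myc gave -1.67 (adjusted p 0.293, -0.63 where nearest 0 in fits on 7 livers), with WT replicate 1 at 18 CPM and the other WT livers at 1.74 to 5.39 CPM. Ccn1, Ccn2, Igfbp3 and Myc were named after their values were seen.

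In the Hedgehog list, which holds Ihh, 8 of 16 genes were tested and 0 passed by edgeR, beside 5.03% of all genes tested. An unadjusted edgeR p under 0.05 was found for 3 of the 8, beside 19.8% of all genes. Of these, Hhip and Ptch1 were higher in HKO livers and Cdon was lower (log2 fold change -0.998, adjusted p 0.164 by edgeR). DESeq2 called 1, Hhip, and limma-voom 0. Hhip, a ligand-binding antagonist that Hedgehog signaling induces, was at 2.40, 3.91, 4.13 and 1.97 CPM in WT livers and 7.42, 3.78, 7.72 and 7.41 CPM in HKO livers. HKO replicate 2 lay within the WT range and the other HKO livers above it. The log2 fold change of Hhip was 1.08 (SE 0.29, adjusted p 0.0543 by edgeR), and it passed when HKO replicate 2 was left out. The receptor gene Ptch1 gave 0.23 (adjusted p 0.241), and the coreceptor gene Gas1 gave -0.06 (adjusted p 0.930, -0.29 to 0.10 in fits on 7 livers).

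Cholesterol has been linked to TAZ stability in hepatocytes, so 19 genes of cholesterol synthesis and its control were read beside Wwtr1. All 19 had a log2 fold change below 0 (median -0.66), and 1 passed by edgeR, as lower in HKO livers, beside 3.37% of all genes tested. Among the most abundant genes, Sc5d, the sterol desaturase, gave -0.39 (adjusted p 0.479) and Hmgcs1, the cytosolic HMG-CoA synthase, -1.77 (adjusted p 0.177), with values nearest 0 of -0.05 and -0.89 in fits on 7 livers. WT replicate 1 was the highest liver for 19 of 19 genes, and WT replicate 2 was the highest for Wwtr1. These are RNA levels and do not measure cholesterol, and a link of cholesterol to Wwtr1 was not tested. HKO livers summed to 1290 to 1605 CPM, below all WT livers. Since the genes share these livers, their number is not independent evidence of a direction.

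**Figure D5:**
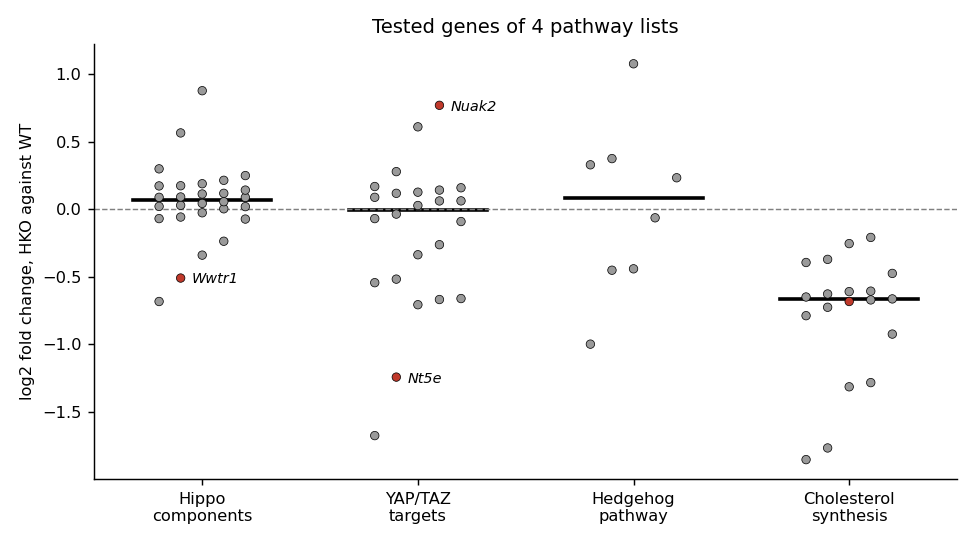
Log2 fold change of HKO against WT livers for each tested gene of 4 lists, with genes past the adjusted edgeR threshold in red (named for the Hippo and target lists), and black bars at list medians. The medians were 0.07 for 28 Hippo components, -0.00 for 24 targets, 0.08 for 8 Hedgehog genes and -0.66 for 19 cholesterol synthesis genes.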

How the data were processed

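RNA was measured in frozen liver of 4 WT and 4 HKO mice, 1 library per liver. Sample titles and column names give each liver its own animal number, but the descriptions of the 4 WT samples repeat a single number, so p-values measure the spread between these libraries. Per the labels, rRNA was depleted, although the library kit named there is a small RNA kit, so which RNA fraction was captured is uncertain; strandedness was not given in the sources used here, so reads of overlapping antisense genes cannot be told apart. The authors deposited estimated counts per gene, before normalization. The submitters' processing notes name STAR for alignment and Partek, and the file is titled as Partek's expectation-maximization quantification. Versions, genome build and annotation were not given in the sources used here. Columns were mapped to livers by name, and 0 were unmapped. The table held 17810 genes.

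Counts were rounded to whole numbers and tested with edgeR 4.0.16 in R 4.3.3 (quasi-likelihood F test, robust, TMM, filterByExpr with a minimum count of 10), with Benjamini-Hochberg adjustment over all 12395 genes tested and a threshold of 0.05. No covariate was used. DESeq2 1.42.0, limma-voom (limma 3.58.1), other scalings and filters, a replicate block and fits without each liver were alternatives. Ratios were tested by exact permutation (Python 3.11.15). On simulated counts for this comparison (12395 genes), edgeR recovered 73% of genes changed by 1 and 94% of those changed by 2 on the log2 scale. Of the genes called, 7.73% were false with edgeR, 14.8% with DESeq2 and 9.19% with limma-voom, each above the threshold of 0.05. Changes smaller than 1, such as that of Wwtr1, were not simulated. Log2 CPM used for correlations had a prior count of 2.

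Gene positions, promoters and the miRNA came from RefSeq (GRCm38.p6). 3′UTRs and exon lengths came from GENCODE vM21 (GRCm38). Named genes were the 10 chosen genes, list genes past the threshold and up to 3 others per list with the highest mean CPM. The genes and lists were chosen with earlier results of these data known. Areg was not analysed here, and a few genes that these rules would name are not reported here.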

Additional observations from a re-analysis of the deposited data

Results flagged for a closer look

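For 88 sets of 4 livers (a gene, ratio or marker sum in 1 genotype), the gap between the most extreme liver and its nearest neighbor was set against the whole range. In 10 sets it was larger than Dixon's 95% limit, and chance alone gives about 1 in 20, or about 4 of 88, although some of the genes were named after their values were seen. The sets were also not independent, since the summed cholesterol synthesis genes include Hmgcs1 and Sc5d. HKO replicate 2 was the distant liver in 4 sets. Yap1 was at 79.4 CPM there and at 88.5 to 89.6 CPM in the other HKO livers. Hhip was at 3.78 CPM there, against 7.41 to 7.72 CPM. The cholangiocyte markers Krt19 and Epcam were at 16.9 and 16.5 CPM there, against 0.17 to 0.41 CPM and 0.45 to 1.02 CPM.

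WT replicate 1 was the distant liver in 4 sets. Summed cholesterol synthesis genes were at 4655 CPM there and at 1630 to 2017 CPM in the other WT livers, with Hmgcs1 at 1082 CPM against 187 to 319 CPM and Sc5d at 939 CPM against 432 to 467 CPM. Summed lymphocyte and neutrophil markers were at 0.496 CPM there and at 2.83 to 2.93 CPM in the other WT livers. The other two were Dock5, at 31.7 CPM in WT replicate 3 against 25.5 to 26.1 CPM, and summed mesothelial markers, at 0.17 CPM in HKO replicate 4 against 2.24 to 2.5 CPM. Wwtr1 and Tead1 were in no such set.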

How the results depend on the processing

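The call of Wwtr1 rested on a value at the threshold, and its direction held under every alternative run. The edgeR count of 624 genes became 1014 with DESeq2, 367 with a fold above 1.5 and 2455 at an unadjusted p, and 212 to 598 without a liver. Of the 10 genes, 2 were called with DESeq2, 0 with RLE scaling or a fold above 1.5, 4 at an unadjusted p, and 0 to 1 without a liver. For Hippo components the counts were 2 with DESeq2, 0 with RLE scaling or a fold above 1.5, 5 at an unadjusted p and 0 to 1 without a liver. For targets they were 0 with limma-voom, 1 with total-count scaling or no filter, 4 at an unadjusted p, and 0 to 2 without a liver. For Hedgehog genes they were 1 with DESeq2, 3 at an unadjusted p and 0 to 1 without a liver. For cholesterol genes they were 3 with DESeq2, 4 at an unadjusted p and 0 to 2 without a liver. Total-count scaling turned the log2 fold change of Yap1 to -0.061 and of Lats2 to -0.0035, and that of Ajuba, -0.208 to 0.049 without a liver, turned to 0.049 without WT replicate 1 and 0.023 without HKO replicate 3. Without a liver the log2 ratio difference was -0.675 to -0.421 for Wwtr1 over Yap1 and -0.135 to -0.071 for Lats2 over Lats1. As mean log2 CPM in place of summed CPM, hepatocyte markers differed by 0.52 (0.13 as sums) and stellate markers by -0.39 (-0.09 as sums). The 8-base seed match occurred in 0 genes, against 1, and the longer TEAD motif in 3, against 6. The causes of these differences were not tested.

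The replicate numbers did not pair the livers, since deviations of same-numbered livers correlated at -0.15 to 0.01. With the replicate block 456 genes were called, Wwtr1 among them (adjusted p 0.0275), with 2 cholesterol genes and 3 targets. The Wwtr1 to Yap1 ratio gave an exact p of 0.125 with the block, the smallest that 4 pairs allow, so this test cannot show a weaker or a stronger difference. Ankrd1 and Ihh had at most 26 counts in a liver and Ajuba 31 to 52, and for Ankrd1 and Ihh the spread between HKO livers exceeded counting error. Intervals and limits cover these 8 livers, 1 diet and 1 time point.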

Other observations

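Protein families that bind TAZ and YAP or feed into the Hippo kinases were read from 5 further lists, chosen after the fits were seen. Of 6 tested RASSF genes, whose products bind the MST kinases, 2 passed as lower in HKO livers by edgeR and 0 as higher, beside 3.37% and 1.66% of all genes tested. Rassf4 was at 12.4, 14.3, 12.7 and 9.33 CPM in WT livers and at 5.60, 4.40, 7.44 and 5.70 CPM in HKO livers. All HKO livers were below all WT livers, and Rassf4 fell by 1.07 on the log2 scale (SE 0.18, adjusted p 0.00768), a call that held in 8 of 8 fits without a liver. Rassf6 was at 15.7 to 21.2 CPM in WT and 10.3 to 13.9 CPM in HKO livers, and fell by 0.55 (SE 0.14, adjusted p 0.0454), held in 2 of 8 such fits.

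Of 6 tested genes for 14-3-3 proteins, which retain phosphorylated YAP and TAZ in the cytoplasm, 1 passed as lower, beside 3.37% of all genes tested. Ywhah was at 52.8 to 60.8 CPM in WT livers and 39.8 to 51.3 CPM in HKO livers, and fell by 0.37 (SE 0.09, adjusted p 0.0408). Of 6 AP-1 factors, which share enhancers with TEAD factors, 0 passed by edgeR, and DESeq2 and limma-voom each called 1, Jun. An unadjusted edgeR p under 0.05 was found for 3, beside 19.8% of all genes tested, with Jun and Atf3 (-1.02) lower and Junb (0.55) higher. Jun was at 18.2 to 20.8 CPM in WT livers and 9.80 to 15.9 CPM in HKO livers (log2 fold change -0.56, adjusted p 0.0516 by edgeR). Of 5 tested genes of the ligase and kinases that mark TAZ and YAP for degradation and 8 of the STRIPAK phosphatase complex, which acts against the MST kinases, 0 passed by edgeR, DESeq2 or limma-voom, and 0 had an unadjusted p under 0.05.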
